A study of Mus musculus with 12 samples.

Results

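The interaction of β-catenin and PU.1 activation was examined in PUER cells as a difference of differences. For each of 22461 of the 27676 genes on the array, the log2 change over 24 h of 4-hydroxytamoxifen (4-OHT) in cells with an empty vector was subtracted from the change in cells with β-catenin-S33Y. The genes were kept by their signal and not by any change. PUER is a mouse myeloid progenitor line with a fusion of PU.1 and the estrogen receptor's ligand-binding domain, which 4-OHT switches on, and all 12 samples carry it. Control cells carried the retroviral vector MIGR1, which expresses GFP, and β-catenin cells carried MIGR1/β-catenin-S33Y, a form that is not marked for degradation. Sorting for GFP took place 5 days after infection, and RNA was taken before 4-OHT (0 h) or 24 h into treatment with 10 nM of it. Each of the 4 groups has 3 arrays with the letters A, B and C. Whether these stand for separate cultures is not stated in the labels, so p-values measure the spread among these samples only, and that spread may be technical. Cells kept for 24 h without 4-OHT were not analysed here, so effects of PU.1, of 4-OHT itself and of time in culture cannot be told apart.

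PU.1, encoded by Spi1, is an Ets family transcription factor that drives genes of macrophages and other myeloid cells. β-catenin is the coactivator of the canonical Wnt pathway: it binds TCF/LEF factors at target genes and is otherwise degraded in the cytoplasm. The comparison asks which responses to PU.1 still run when β-catenin cannot be degraded.

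Levels are normalized log2 values, ± gives the SE (standard error) of a difference on that scale in the limma fit with 3 arrays per group, and p-values are adjusted by Benjamini-Hochberg over all genes tested. A difference was called at an adjusted p below 0.05. A value was above background if it passed a bound set for each array, between 7.38 and 7.62 on the log2 scale. Folds that involve values below the bound are given as "at least", with the bound in their place. Between 46.6% and 49.6% of the genes of an array were above background, and the median SE of the interaction was 0.19. Ctnnb1, the gene of β-catenin, read 13.86 and 13.87 at 0 h in control and β-catenin cells, and 13.75 and 13.65 at 24 h, with no called difference. The sources used here do not place its probe on the gene, so it does not check the labels. Axin2 and Lef1, targets of the Wnt pathway, were below background on all 12 arrays. The Spi1 probe, which may read the fusion, gave 12.49 and 12.01 in control cells and 12.22 and 12.18 in β-catenin cells, with an interaction of 0.44 ± 0.16 that was not called (adjusted p = 0.13).

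The interaction was called for 1610 of 22461 genes (7.17%), with 839 higher (3.74%) and 771 lower (3.43%), and its median over all genes was 0.0157. Classes were built from genes with a called change of at least 2-fold in control cells, which were 580 rises and 513 falls. In all, 22.7% of genes had a called control response, with 2674 rises (11.9%) and 2422 falls (10.8%). With the scanned intensities scaled to the 75th percentile of each array, the median control response was -0.12 and the split was 2058 rises and 3327 falls. A response was named blocked if the interaction was called against it and at most 25% of it remained with β-catenin, and dampened if more remained. It was named reversed if the change with β-catenin was called with the opposite sign. It was named unaffected if the interaction was not called and its 95% confidence interval lay within 1 log2 unit on either side of zero.

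Of the 580 rises, 64 were blocked (11%), 2 reversed, 234 dampened (40.3%), 2 enhanced and 216 unaffected (37.2%). Of the 513 falls, 146 were blocked (28.5%), 6 reversed, 185 dampened (36.1%), 0 enhanced and 119 unaffected (23.2%). The other 62 rises and 57 falls had no called interaction and an interval too wide to class. The classes use the same contrasts as the interaction, so these counts are a description. Among genes above background and below the scan ceiling throughout, 29 of 356 rises (8.15%) and 100 of 377 falls (26.5%) were blocked. Without control 24 h array A, the blocked rises numbered 102 in place of 64.

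**Figure D1:**
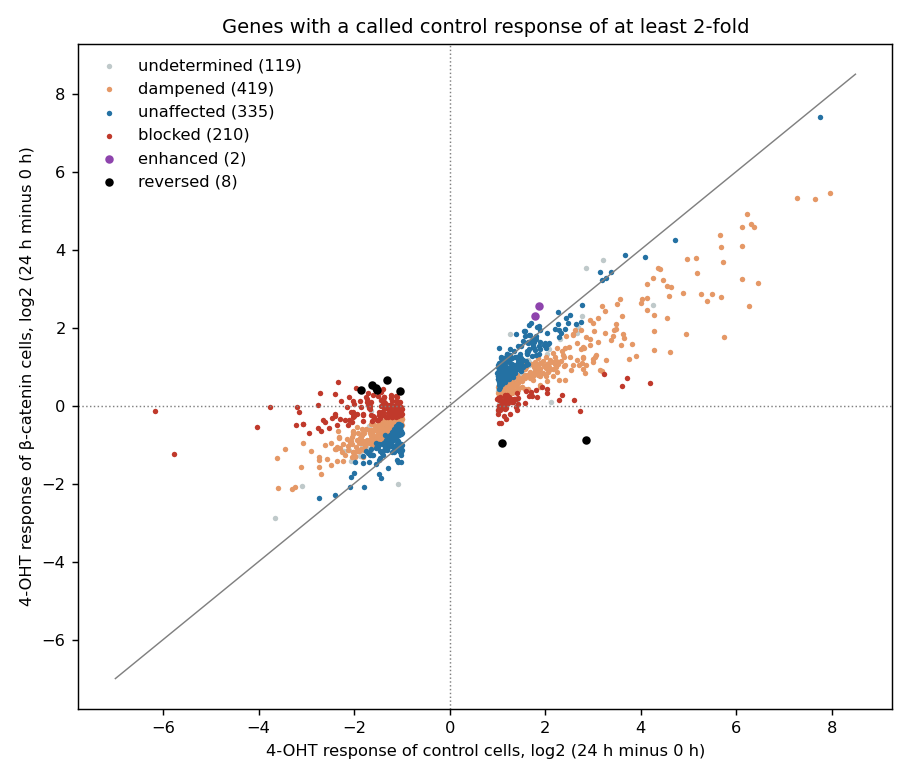
Each point is a gene with a called control response of at least 2-fold, placed by its log2 change over 24 h of 4-OHT in control cells (horizontal axis) and in β-catenin cells (vertical axis), and coloured by class. Unaffected genes lie near the diagonal of equal response, blocked genes near the dotted horizontal line at zero, and the 8 reversed genes across it.

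The 0 h level set blocked rises apart from blocked falls. The interaction equals the vector effect (β-catenin minus control) at 24 h less that at 0 h, on the same arrays, so the following split describes where a difference lay and is no further test. Of the 64 blocked rises, 54 differed between the vectors only at 24 h, 1 only at 0 h and 7 at both times with opposite signs. Of the 146 blocked falls, 70 differed only at 0 h, 31 only at 24 h and 31 at both times with opposite signs. At 0 h, 108 of the blocked falls were lower with β-catenin and 6 were higher, where 6.62% of all genes were lower and 4.38% higher (11% in all). With normexp and quantile normalization, 1566 of all genes were lower and 1552 higher at 0 h, in place of 1486 and 983. At 24 h, 62 of the 64 blocked rises were lower with β-catenin and 68 of the 146 blocked falls were higher, where 9.88% of all genes were lower and 8.68% higher (18.6% in all). The 2469 genes called at 0 h numbered 1547 and 1624 without β-catenin 0 h array B or C and 1633 without control 0 h array B. Of the blocked rises, 1 was lower at 0 h, 9 were higher and 54 had no called difference. Over 23 other settings, 73.5% to 93.2% of blocked rises and 14.5% to 29.2% of blocked falls differed only at 24 h. The share that differed only at 0 h was 0% to 3.77% of blocked rises and 38.6% to 55.9% of blocked falls.

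Median levels described the same split. Blocked rises went from 7.61 to 9.44 in control cells and from 7.8 to 8.01 in β-catenin cells. Blocked falls went from 11.6 to 9.72 in control cells and from 10.6 to 10.5 in β-catenin cells. For the 70 falls that differed only at 0 h, the medians were 11 and 9.03 in control cells and 8.89 and 8.88 in β-catenin cells, so that the β-catenin cells were already at the level control cells reached at 24 h. In 69 of these 70 genes the level in β-catenin cells at 0 h lay within 1 log2 unit of the control level at 24 h, as a gene that differs only at 0 h and does not respond must. Background limits both classes: 24 of the 64 blocked rises had no 0 h array above it and 23 had no β-catenin array above it. Of the blocked falls, 14 had no β-catenin array above background, where a fall cannot be seen.

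**Figure D2:**
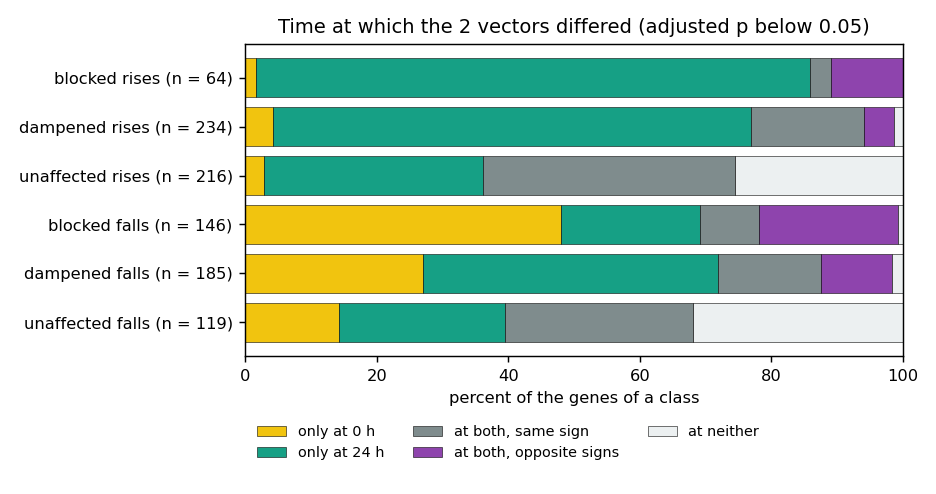
Bars give the percent of the genes of 6 classes in which the vectors differed (adjusted p below 0.05) only at 0 h, only at 24 h, at both times with the same or opposite signs, or at neither. Blocked rises differed mostly only at 24 h (54 of 64), and the largest share of blocked falls differed only at 0 h (70 of 146).

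The largest blocked rises were Mmp12, Itgax, Aim1, Msr1, Il1r1 and Siglec1. They were taken from genes with all arrays of their highest group above background, so that trait was set by the choice. Mmp12, the gene of macrophage elastase, read 6.08, 5.41 and 5.84 at 0 h and 9.87, 9.96 and 10.07 at 24 h in control cells, against 6.39, 6.35 and 6.43 and then 7.34, 6.67 and 6.89 in β-catenin cells. Only the control arrays at 24 h were above background, at least 5.6-fold over β-catenin cells. Its interaction was -3.61 ± 0.26 (adjusted p = 1.39e-05), or -2.43 with the bound in place of lower values. Itgax, which encodes the integrin CD11c, read 6.65, 6.47 and 6.22 and then 9.85, 10.11 and 10.22 in control cells, and 6.59, 5.80 and 6.39 and then 6.63, 6.65 and 7.03 in β-catenin cells. Again the control arrays at 24 h stood apart from the 9 others, at least 5.95-fold over β-catenin cells, with an interaction of -3.11 ± 0.28 (adjusted p = 5.98e-05). With the bound in place of lower values it was -2.52.

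Msr1, a scavenger receptor gene of macrophages, and Siglec1, the gene of the sialic acid receptor sialoadhesin, followed the same pattern at lower levels. At 24 h Msr1 read 8.77, 8.90 and 8.95 in control cells and 6.74, 6.16 and 6.63 in β-catenin cells. At 24 h Siglec1 read 8.67, 8.91 and 8.95 in control cells and 6.80, 6.64 and 6.54 in β-catenin cells. For both genes all arrays other than the control arrays at 24 h were below background, and the interactions were -2.88 ± 0.39 and -2.14 ± 0.15. With the bound in place of lower values, they were -1.34 and -1.31. Aim1 reached a mean of 10.10 in control cells and 7.08, below background, in β-catenin cells. Il1r1, the signalling receptor of interleukin 1, rose at least 5.25-fold in control cells to 9.91 and read 7.48 with β-catenin, with 1 of 3 arrays above background. With 24.9% of its rise left, Il1r1 lay just inside the limit of 25%, beside the blocked falls Pear1 (24.9%) and Nr1h3 (24.8%). Just outside lay the rises Il1rn (25.3%) and Treml1 (25.8%) and the fall Fbxo32 (25.7%). The share of Il1r1 rests in part on values below background. With the bound in their place, it rose 5.25-fold in control cells and 1.05-fold with β-catenin.

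Cd74, the invariant chain of MHC class II, read 7.23, 7.48 and 7.02 and then 8.81, 8.71 and 8.97 in control cells, and 7.34, 7.50 and 7.55 and then 7.66, 7.42 and 7.55 in β-catenin cells. All control arrays at 24 h were higher than every other array, while the other groups lay about the bound. That the arrays of its highest group were above background was a condition for naming it. The interaction was -1.51 ± 0.18 (adjusted p = 0.000438), or -1.22 with the bound in place of lower values.

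The promoters of blocked and unaffected rises are shown because the study's title concerns targets of PU.1. Each is the 300 bases around the first listed start in RefSeq (GRCm38.p6), written along the gene. Capitals mark matches, on either strand, to GAGGAAG, a core of the PU.1 site, or to TGANTCA, the AP-1 site. A core of the TCF/LEF site, CTTTGAA, was also searched. Mmp12 lies at chr9:7344147-7344446 (plus strand) and Itgax at chr7:128129300-128129599 (plus strand). Fcgr1 and Gprc5b, which are unaffected rises, lie at chr3:96293920-96294219 (minus strand) and chr7:118995162-118995461 (minus strand).
Mmp12: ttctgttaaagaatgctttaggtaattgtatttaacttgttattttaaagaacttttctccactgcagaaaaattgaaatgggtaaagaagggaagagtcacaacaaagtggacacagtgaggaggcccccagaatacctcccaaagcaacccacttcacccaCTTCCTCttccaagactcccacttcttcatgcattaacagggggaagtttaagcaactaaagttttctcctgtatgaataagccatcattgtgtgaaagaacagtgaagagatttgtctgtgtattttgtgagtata
Itgax: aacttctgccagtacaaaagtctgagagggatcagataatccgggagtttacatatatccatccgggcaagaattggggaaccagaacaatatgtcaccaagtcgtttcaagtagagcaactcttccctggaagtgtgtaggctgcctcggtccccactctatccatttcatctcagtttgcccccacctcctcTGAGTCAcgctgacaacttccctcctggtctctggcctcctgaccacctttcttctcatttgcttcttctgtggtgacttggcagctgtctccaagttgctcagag
Fcgr1: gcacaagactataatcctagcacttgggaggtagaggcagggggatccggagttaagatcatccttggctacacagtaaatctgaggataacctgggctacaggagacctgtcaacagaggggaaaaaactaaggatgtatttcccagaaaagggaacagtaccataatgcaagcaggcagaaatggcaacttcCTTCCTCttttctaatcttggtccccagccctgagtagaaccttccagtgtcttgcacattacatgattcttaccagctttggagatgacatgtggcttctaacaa
Gprc5b: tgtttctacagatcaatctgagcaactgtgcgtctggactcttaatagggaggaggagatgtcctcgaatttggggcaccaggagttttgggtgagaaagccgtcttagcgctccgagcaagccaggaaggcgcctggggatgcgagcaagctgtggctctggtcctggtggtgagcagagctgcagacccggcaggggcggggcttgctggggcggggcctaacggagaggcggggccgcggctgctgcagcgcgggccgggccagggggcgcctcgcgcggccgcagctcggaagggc
The Mmp12 and Fcgr1 windows each held 1 match to GAGGAAG, the Itgax window held 1 match to TGANTCA, and the Gprc5b window held no match, so no matches overlapped in these windows. Of all listed promoters, 13.5% held GAGGAAG, 7.93% TGANTCA and 5.27% CTTTGAA. The PU.1 core GAGGAAG was in 14.6% of blocked rises (6 of 41 with a listed promoter), 23.7% of dampened rises (40 of 169) and 15.2% of unaffected rises (25 of 164), beside 12.9% of the genes tested. Among falls it was in 14.4% of blocked, 20.5% of dampened and 16.5% of unaffected genes. CTTTGAA was in 2.44% of blocked rises (1 of 41), 4.14% of dampened and 3.05% of unaffected rises, beside 4.35% of the genes tested. Among falls these shares were 1.03% (1 of 97), 4.55% and 3.8%. TGANTCA was in 7.32% of blocked, 14.8% of dampened and 8.54% of unaffected rises, beside 6.3% of the genes tested. Among falls these shares were 7.22%, 9.85% and 13.9%. A match describes these letters and is not a bound site.

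Blocked falls with large interactions included Tmem119, Egr1, Glod5, Bcar1 and Mgarp. Bcar1, the gene of the adaptor protein p130Cas, read 10.62, 10.60 and 10.38 and then 7.58, 7.03 and 7.38 in control cells, a fall of at least 8.46-fold. In β-catenin cells it read 6.71, 6.72 and 7.13 and then 6.91, 7.21 and 6.37. The control arrays at 0 h were at least 8.39-fold over β-catenin cells, and 1 of the 9 other arrays was above background, so a fall with β-catenin could not be measured. The interaction was 3.18 ± 0.29 (adjusted p = 6.33e-05).

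Egr1, a zinc finger transcription factor and immediate-early gene, was above background throughout. It read 14.41, 14.80 and 14.46 and then 11.23, 10.81 and 10.36 in control cells, and 11.81, 11.53 and 11.47 and then 11.42, 11.89 and 11.41 in β-catenin cells. The control arrays at 0 h stood apart from the rest. With β-catenin the level was 7.74-fold lower at 0 h and 1.71-fold higher at 24 h, and 0.791% of the control fall remained (interaction 3.73 ± 0.30, adjusted p = 3.23e-05). Tmem119, a membrane protein gene, read 13.43, 13.54 and 13.14 and then 7.40, 7.81 and 7.59 in control cells. It read 11.18, 11.18 and 11.33 and then 10.01, 10.40 and 9.55 in β-catenin cells, between the control levels of both times. Here 21.6% of the fall remained and was itself called (-1.24 ± 0.19, adjusted p = 0.00087).

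Glod5 (listed as 2010001H14Rik) had a similar order of means, 11.90 and 7.87 in control cells and 9.66 and 9.11 in β-catenin cells. Mgarp (listed as 4930583H14Rik) went from 11.71 to 8.99 in control cells and was 14.3-fold lower with β-catenin at 0 h. Other blocked falls started level and parted at 24 h. Prtn3, the gene of proteinase 3 in neutrophil granules, read 15.43, 15.25 and 15.13 and then 13.85, 13.88 and 13.65 in control cells, and 15.37, 15.20 and 15.24 and then 14.94, 15.25 and 14.91 in β-catenin cells. Its 0 h groups overlapped, and its vector effect at 24 h was 1.24 ± 0.12 (adjusted p = 2.51e-05). Dusp2, a phosphatase of MAP kinases, had means of 11.79 and 10.10 in control cells and 11.34 and 11.29 in β-catenin cells, with a 24 h difference of 2.27-fold.

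**Figure D3:**
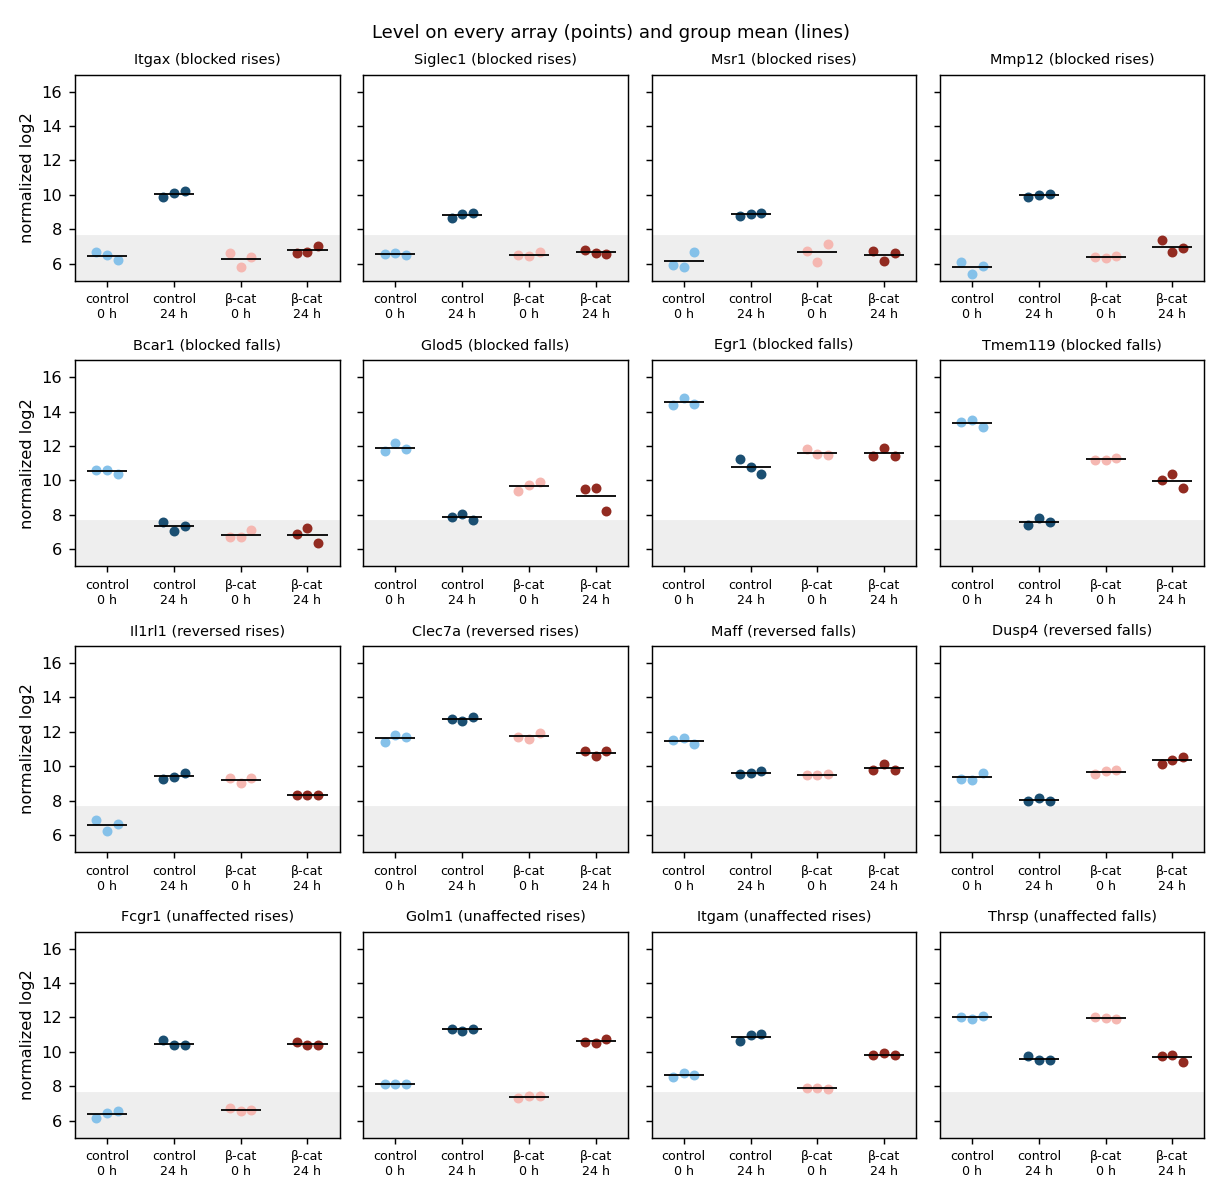
Points are normalized log2 levels on the 3 arrays of each group, lines are group means, and the grey band covers levels under the highest background bound of any array (7.62). The rows show blocked rises that stay at background with β-catenin, blocked falls that start lower with β-catenin, reversed genes and unaffected genes.

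With a control change of at least 2-fold, 8 genes were reversed. With any called control response, 41 rises and 58 falls were reversed. Il1rl1, the receptor gene of interleukin 33, read 6.85, 6.21 and 6.61, below background, and then 9.27, 9.37 and 9.58 in control cells. In β-catenin cells it read 9.29, 9.04 and 9.32 and then 8.31, 8.32 and 8.34. The gene thus started at least 3.25-fold higher with β-catenin and ended 2.12-fold lower. It rose at least 3.71-fold in control cells and fell by 0.89 ± 0.15 with β-catenin (adjusted p = 0.00162), with an interaction of -3.74 ± 0.21 (adjusted p = 3.73e-06). The size of this interaction rests in part on the control 0 h values below background, and it is smaller with the bound in their place. Il1rl1 was also on the mast cell list described below.

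Clec7a, which encodes dectin-1, a receptor for fungal β-glucan, started level and diverged. It read 11.43, 11.81 and 11.70 and then 12.76, 12.63 and 12.87 in control cells, and 11.69, 11.61 and 11.92 and then 10.91, 10.58 and 10.89 in β-catenin cells. The 0 h arrays of the vectors overlapped (vector effect 0.09 ± 0.13) and the 24 h arrays did not (-1.96 ± 0.13). The interaction was -2.05 ± 0.19 (adjusted p = 6.54e-05).

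Among the 6 reversed falls, 4 started lower with β-catenin and ended with no called vector effect: the AP-1 family genes Maff and Fosl1, the exonuclease gene Isg20 and the chemokine gene Ccl4. Fosl1 read 12.23, 12.08 and 11.67 and then 10.28, 10.38 and 10.44 in control cells, and 10.04, 10.06 and 10.08 and then 10.72, 10.54 and 10.53 in β-catenin cells. It was 3.81-fold lower at 0 h and rose by 0.53 ± 0.13 with β-catenin (adjusted p = 0.0158), with an interaction of 2.15 ± 0.18 (adjusted p = 4.09e-05). Maff was 3.93-fold lower at 0 h and rose by 0.39 ± 0.12 (adjusted p = 0.0484). Isg20 was 4.56-fold lower and rose by 0.40 ± 0.11 (adjusted p = 0.0291). Ccl4 was 2.62-fold lower and rose by 0.39 ± 0.11 (adjusted p = 0.0423). In each of these genes the control arrays at 0 h were higher than the 9 others.

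Dusp4 and Elovl3 started level. Dusp4, a phosphatase of MAP kinases, read 9.28, 9.21 and 9.58 and then 8.0, 8.17 and 7.99 in control cells, and 9.53, 9.71 and 9.75 and then 10.11, 10.35 and 10.55 in β-catenin cells. The vectors differed 4.86-fold at 24 h (interaction 1.97 ± 0.19, adjusted p = 7.68e-05). Elovl3, a fatty acid elongase gene, had means of 9.21 and 7.68 in control cells and 9.17 and 9.63 in β-catenin cells. The interactions of all 8 genes stayed called in 23 other settings, but the opposite change is small. Il1rl1 and Dusp4 stayed reversed in 23 of these settings, Clec7a in 22, Fosl1 in 20, Isg20 in 19, Elovl3 in 11, and Maff and Ccl4 in 8 each. Reversed falls numbered 1 without β-catenin 0 h array B, 2 without array C of that group, and 3 without its array A, without control 24 h array B or without β-catenin 24 h array A. Reversed rises numbered 10 without control 24 h array A and 1 without control 0 h array A.

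Dampened rises were the largest class and held some of the steepest rises in control cells. Clec4a2, a C-type lectin receptor gene of myeloid cells, read 7.69, 7.96 and 7.65 and then 15.97, 15.58 and 15.66 in control cells, and 8.17, 8.72 and 8.41 and then 13.90, 13.82 and 13.92 in β-catenin cells. It rose 250-fold in control cells and 43.7-fold with β-catenin, from a start 1.58-fold higher (interaction -2.52 ± 0.21, adjusted p = 3.91e-05). Its control levels at 24 h were near the lowest values of genes at the scan ceiling on those arrays (15.63 to 15.76). Whether the ceiling limited its control rise was not tested. Adgre1, which encodes the macrophage marker F4/80 and is listed as Emr1, rose 51.8-fold from 9.08 in control cells and 16.8-fold from 8.16 in β-catenin cells. Sucnr1, the succinate receptor, started below background with both vectors, rose at least 20.1-fold in control cells and reached 7.79, 7.89 and 7.91 in β-catenin cells (interaction -3.99 ± 0.20).

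Ptprc, the gene of the leukocyte phosphatase CD45, also started below background and read 12.69, 12.51 and 12.71 in control cells and 8.68, 8.64 and 8.98 in β-catenin cells at 24 h, a difference of 14.6-fold. Clec4n, the gene of dectin-2, rose at least 87.3-fold in control cells and at least 8.77-fold with β-catenin from 0 h means of 7.71 and 7.54. Plet1 rose at least 19.9-fold and at least 2.12-fold from below background. Of the 234 dampened rises, 170 differed only at 24 h, 40 at both times in the same direction and 10 only at 0 h, and 146 were above background at 0 h with both vectors.

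Dampened falls started lower, level or higher with β-catenin. Tnfsf13b, the gene of the B cell survival factor BAFF, started lower, with means of 11.58 and 8.13 in control cells and 9.71 and 8.61 in β-catenin cells. F13a1, the gene of coagulation factor XIII subunit A, started 2.52-fold lower and fell 1.95-fold, against 8.34-fold in control cells. Rapgef3, a cyclic AMP-activated exchange factor gene, started higher. It read 13.05, 12.97 and 12.77 and then 9.58, 9.36 and 9.02 in control cells, and 14.72, 14.75 and 14.72 and then 13.43, 13.55 and 13.17 in β-catenin cells. The vectors differed 3.49-fold at 0 h and 16.7-fold at 24 h (interaction 2.26 ± 0.20, adjusted p = 5.84e-05). At 0 h, 75 of the 185 dampened falls were lower with β-catenin, 24 were higher and 86 had no called difference.

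Unaffected rises included some of the known macrophage genes. Fcgr1, which encodes CD64, the Fc receptor that binds IgG with high affinity, read 6.18, 6.45 and 6.57 and then 10.66, 10.39 and 10.39 in control cells, and 6.75, 6.54 and 6.60 and then 10.56, 10.38 and 10.37 in β-catenin cells. The 24 h arrays of the vectors overlapped, and the 95% confidence interval of the interaction was -0.65 to 0.10. All 0 h arrays were below background, so the rises were at least 7.81-fold and at least 7.86-fold. Chil4, a chitinase-like gene of macrophages, rose 12.7-fold and 14.6-fold from 0 h means of 11.37 and 11.77, with an interval of -0.37 to 0.76.

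Other unaffected rises kept a distance between the vectors at both times. Itgam, which encodes the integrin CD11b, read 8.56, 8.78 and 8.66 and then 10.65, 10.96 and 11.03 in control cells, and 7.92, 7.87 and 7.86 and then 9.80, 9.90 and 9.82 in β-catenin cells. The groups overlapped at neither time, with β-catenin cells 1.72-fold lower at 0 h and 2.06-fold lower at 24 h (interval of the interaction -0.58 to 0.07). Slfn2, a Schlafen family gene, was 3.9-fold lower at 0 h and 3.26-fold lower at 24 h. Golm1, a Golgi membrane protein gene, had vector effects of -0.71 ± 0.09 and -0.70 ± 0.09, from 0 h means of 8.11 and 7.39, the latter below background. Gapt, an adaptor protein gene, was higher with β-catenin, by 1.58 ± 0.16 at 24 h, and below background in control cells at 0 h. With the bound in place of lower values its interaction was 1.01 in place of a value near zero, outside the limit of the class. Gprc5b, an orphan receptor gene, rose 26.2-fold from 8.01 in control cells and at least 10.3-fold from below background in β-catenin cells. Its interaction was likewise -1.35 with the bound and -0.47 ± 0.24 without it, so the class of both genes rests on values below background.

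Of the 216 unaffected rises, 83 differed between the vectors at both times in the same direction, 72 only at 24 h, 6 only at 0 h and 55 at neither. Their median 0 h levels were 10.5 in control cells and 10.3 in β-catenin cells, and 77 were lower with β-catenin at 0 h and 12 higher. Their median interaction was -0.294, towards a smaller rise, which the limits of the class allow.

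Unaffected falls included Thrsp, a gene of lipid synthesis, and Ly6a, the gene of the progenitor antigen Sca-1. Thrsp read 12.02, 11.88 and 12.11 and then 9.74, 9.51 and 9.54 in control cells, and 12.01, 11.96 and 11.93 and then 9.77, 9.84 and 9.43 in β-catenin cells. The vectors overlapped at both times, and the interval of the interaction was -0.25 to 0.49. Ccdc85a fell 4.02-fold and 3.33-fold from 10.99 and 10.72. Ly6a went from 13.13 to 11.33 in control cells and from 13.19 to 11.89 in β-catenin cells, and its interaction of 0.51 ± 0.19 was called without β-catenin 24 h array C (adjusted p = 0.0434). Fmo5, a flavin monooxygenase gene, fell 3.97-fold and 2.72-fold, and its interaction of 0.54 ± 0.17 (adjusted p = 0.0786) was called in 4 other settings, 1 of them without control 0 h array C. Of the 119 unaffected falls, 23 were lower with β-catenin at 0 h, 28 were higher and 68 had no called difference.

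Few responses were enhanced, and 1 of the 2 enhanced rises was at the scan ceiling. Hk3, a hexokinase gene of myeloid cells, read 14.06, 13.89 and 13.85 and then 15.82, 15.64 and 15.71 in control cells, and 13.44, 13.31 and 13.35 and then 15.68, 15.67 and 15.69 in β-catenin cells. It started 1.48-fold lower with β-catenin and ended level, near the lowest values of genes at the ceiling on the 24 h arrays (15.63 to 15.88). Whether the ceiling limited its rise was not tested. Its interaction of 0.52 ± 0.13 (adjusted p = 0.0283) was not called without control 0 h array A or B, control 24 h array B or C, β-catenin 0 h array B or C, or β-catenin 24 h array A or C (adjusted p up to 0.0809).

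Of the genes with a called interaction, 223 had a called response with β-catenin and none called in control cells. Of these, 12 rises and 19 falls were at least 2-fold with β-catenin, and 21 and 32 met these limits with the letters as a block among the 24 h arrays. Of the 12 rises, 10 started lower with β-catenin. Jun, an AP-1 subunit gene, read 11.69, 12.04 and 11.97 and then 12.17, 12.07 and 12.23 in control cells, and 8.90, 9.04 and 8.96 and then 10.53, 10.38 and 10.78 in β-catenin cells. The vectors differed 7.64-fold at 0 h and 3.01-fold at 24 h (interaction 1.34 ± 0.17, adjusted p = 0.000694). Hmox1, the gene of heme oxygenase 1, was 4.05-fold lower at 0 h and rose 3.32-fold with β-catenin. Car6, a secreted carbonic anhydrase gene, was at least 3.75-fold lower at 0 h, and Cox6a2, a cytochrome c oxidase subunit gene, 2.4-fold lower.

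Of the 19 falls, 12 started higher with β-catenin and 0 started lower. Akap12, a scaffold gene for protein kinase A, read 7.85, 7.76 and 7.68 and then 8.36, 7.98 and 7.97 in control cells, and 13.03, 13.28 and 13.35 and then 11.57, 11.44 and 11.30 in β-catenin cells. It was 44.1-fold higher at 0 h and fell 3.46-fold with β-catenin (interaction -2.13 ± 0.18, adjusted p = 4.22e-05). Ces1c, a carboxylesterase gene, Gdpd2, a phosphodiesterase gene, and Slco1c1, an organic anion transporter gene, were below background in control cells at both times, where no fall could be measured. With β-catenin Ces1c fell at least 6.19-fold, Gdpd2 at least 3.27-fold and Slco1c1 at least 1.96-fold.

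Gene lists describe the same pattern by function. Beside the counts of each list stand 3.43% of all genes called lower and 3.74% called higher in the interaction. Of 37 macrophage genes tested, 15 were lower and 4 higher in the interaction, with a median of -0.465 beside 0.0157 for all genes. Over 23 other settings, 14 to 17 were lower and 2 to 4 higher, with 2 higher without any of 7 single arrays (control 0 h A, B or C, control 24 h B, β-catenin 0 h A or C, β-catenin 24 h B). In control cells 26 rose, where 11.9% of all genes rose. In β-catenin cells 23 rose, where 8.02% of all genes rose, 6.32% fell and 14.3% in all had a called response. At 0 h, 12 of the 37 were lower with β-catenin and 2 higher, beside 6.62% and 4.38% of all genes (9 to 14 lower over 23 other settings). At 24 h, 23 were lower and 1 was higher, beside 9.88% and 8.68% of all genes. By class, 12 were dampened, 5 unaffected, 3 blocked (2 rises and 1 fall) and 1 reversed. Cx3cr1, the fractalkine receptor gene, read 10.82, 10.64 and 11.06 in control cells and 8.15, 7.81 and 7.85 in β-catenin cells at 24 h, from below background at 0 h. The 4 higher members, named after their values were seen, were Gpnmb, Fcgr4 and the NADPH oxidase subunit genes Ncf1 and Ncf4. The summed signal of the list was 18.05 to 18.16 and then 19.08 to 19.31 (log2) in control cells, and 17.76 to 17.88 and then 18.41 to 18.55 in β-catenin cells. In bulk samples, fewer cells of a type and less RNA per cell cannot be told apart. Csf1r, the receptor gene of macrophage colony-stimulating factor, had no class: at 24 h it read 8.02, 7.85 and 7.97 in control cells and 7.35, 7.43 and 7.27, below background, in β-catenin cells (interaction -0.57 ± 0.27, adjusted p = 0.269). Its interaction was called with normexp and quantile normalization (adjusted p = 0.0331).

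Of 24 lysosome genes, 4 were lower and 1 was higher in the interaction, with a median of -0.184. Ctss, the gene of cathepsin S, rose at least 4.56-fold in control cells to 9.70 and read 7.25, 7.78 and 7.61 with β-catenin, from below background. Lgmn, the gene of legumain, rose 10.8-fold from 8.32 in control cells and 3.82-fold from 8.08 in β-catenin cells. Lipa, the gene of lysosomal acid lipase, rose 3.37-fold from 12.14 and 1.59-fold from 11.74. The higher gene was Gaa, acid α-glucosidase (0.60 ± 0.15, adjusted p = 0.0313), and its call was lost without any of 8 single arrays (control 0 h A, B or C, control 24 h B, β-catenin 0 h B or C, β-catenin 24 h B or C) and with a replicate block.

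Immediate-early genes, which cells switch on rapidly after a signal, went the other way. Of 27 tested, 13 were higher and 1 was lower in the interaction, beside 3.74% and 3.43% of all genes, with a median of 0.552. Over 23 other settings, 12 to 15 were higher and 0 to 1 lower, with 0 lower without control 0 h array C, control 24 h array B or C or β-catenin 0 h array C. At 0 h, 18 of the 27 were lower with β-catenin and 1 was higher, beside 6.62% and 4.38% of all genes. In control cells 13 fell and 3 rose, beside 10.8% and 11.9% of all genes. In β-catenin cells 2 fell and 10 rose, beside 6.32% and 8.02%. The 6 blocked members were all falls, and 2 were reversed. Fos, the partner of Jun in AP-1, read 12.47, 12.76 and 12.99 and then 12.24, 11.63 and 11.64 in control cells, and 8.93, 8.95 and 9.10 and then 11.03, 10.99 and 11.28 in β-catenin cells. It was 13.4-fold lower at 0 h and 1.66-fold lower at 24 h, and it fell 1.87-fold in control cells and rose 4.31-fold with β-catenin (interaction 3.01 ± 0.25, adjusted p = 3.5e-05). The summed signal of the list was 18.60 to 18.64 on control arrays at 0 h and 17.71 to 18.13 on the 9 others.

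Junb, Ier2, Fosb and Atf3, named after their values were seen, were blocked falls. Junb, an AP-1 subunit gene, read 15.48, 15.70 and 15.62 and then 13.95, 13.65 and 13.62 in control cells, and 14.20, 14.32 and 14.45 and then 14.29, 14.26 and 14.34 in β-catenin cells. Its levels with β-catenin at both times lay between the control levels. On control 0 h array B it lay above the lowest value of genes at the scan ceiling (15.55). Whether the ceiling limited its level was not tested. Atf3, a stress-responsive transcription factor gene, had means of 10.62 and 9.12 in control cells and 8.61 and 8.86 in β-catenin cells. The lower member was Nr4a1, an orphan nuclear receptor gene that rose with both vectors (interaction -0.80 ± 0.19).

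**Figure D4:**
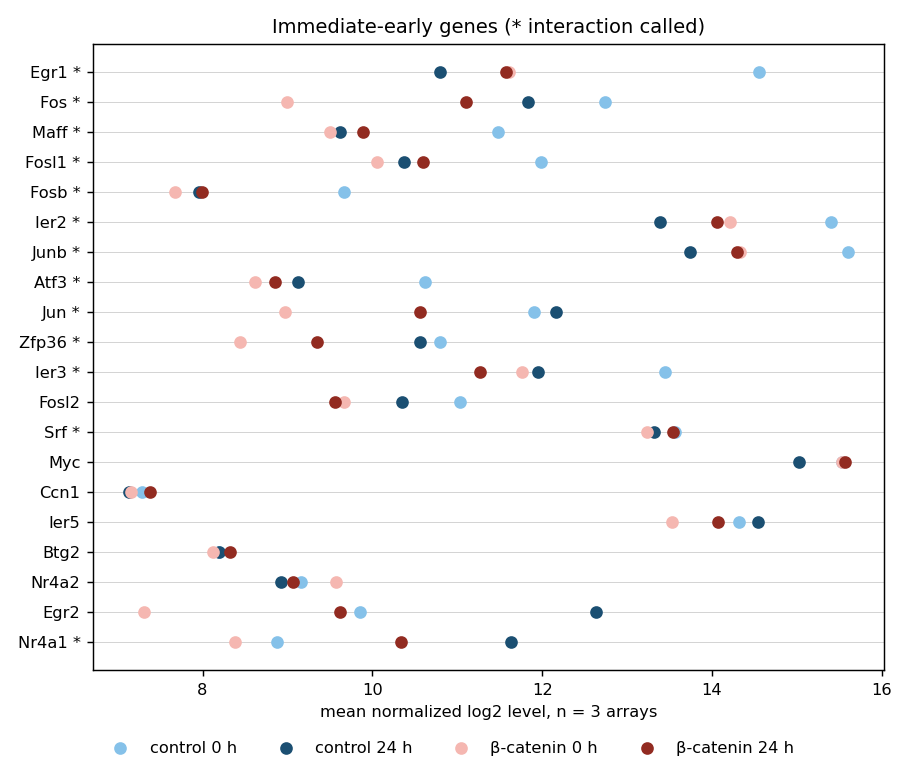
Mean normalized log2 levels (3 arrays) of immediate-early genes above background on at least 1 array and below the scan ceiling, with the gene of highest interaction at the top and 1 colour for each vector and time. In the upper part the control level at 0 h (light blue) lies to the right of the others, as for Egr1, and the β-catenin level at 0 h (pink) is lower.

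A list of Dusp, Spry, Spred and Rgs genes was grouped as MAP kinase feedback genes, and 14 of them were tested. Of these 14, 6 were higher and 0 lower in the interaction by limma (median 0.423, with 0 to 1 lower over 23 other settings). Among all genes, 3.74% were called higher and 3.43% lower. At an unadjusted p below 0.05, a looser limit than that of these calls, 4609 of all 22461 genes passed. Dusp1 read 12.22, 12.30 and 12.42 and then 11.61, 11.36 and 11.20 in control cells, and 8.63, 8.48 and 8.64 and then 9.29, 9.32 and 9.38 in β-catenin cells. It fell by 0.92 ± 0.11 in control cells and rose by 0.75 ± 0.11 in β-catenin cells, from a start 13.3-fold lower. Spry2, an inhibitor of receptor kinase signalling, started level at 12.94 and 12.86 and fell 2.42-fold and 1.32-fold.

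Of 27 inflammatory and NF-κB genes tested, 4 were higher and 4 lower in the interaction (median -0.0113, with either sign over other settings). The 4 higher fell to 2 without control 0 h array B, control 24 h array B, β-catenin 0 h array A or β-catenin 24 h array A. At 0 h, 13 of the list were lower with β-catenin, beside 6.62% of all genes. Ccl3, a chemokine gene, went from 14.01 to 12.65 in control cells and from 12.53 to 12.59 in β-catenin cells. Il1rn, the interleukin 1 receptor antagonist, rose 2.49-fold from 10.51 in control cells and read 9.64 and 9.97 with β-catenin. Icam1, an adhesion molecule gene, was unaffected, from below background to 8.24 and 8.06. Nfkbie, an inhibitor of NF-κB, was dampened, and its call was lost without β-catenin 0 h array B (adjusted p = 0.051).

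Neutrophil granule genes also split, with 3 of 16 higher and 2 lower (median 0.252). Over 23 other settings, 1 to 6 were higher and 2 to 3 lower. Without genes at the scan ceiling, 9 were tested, with 1 higher and 2 lower. The gelatinase gene Mmp9 rose at least 35.3-fold in control cells to 12.21, 12.92 and 12.83 and at least 3.3-fold with β-catenin to 9.02, 9.51 and 9.03, from below background. Mmp8, neutrophil collagenase, rose 6.94-fold from 8.23 and 2.34-fold from 7.95. Of 18 stem and progenitor genes, 3 were higher and 0 lower (median 0.273, with 0 lower in 23 other settings). Kit, the stem cell factor receptor, fell 3.69-fold from 12.80 in control cells and 1.92-fold from 13.06 in β-catenin cells. Hlf, a transcription factor of stem cells, fell 3.21-fold and 1.94-fold from 9.86 and 10.11.

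Of 24 Wnt target and feedback genes tested, 10 were below background on all arrays, 1 was called higher in the interaction and 0 lower, beside 3.74% and 3.43% of all genes (median -0.00977, with either sign over other settings, and 1 to 4 higher and 0 to 3 lower, with 2 higher without control 0 h array A or B, control 24 h array A or β-catenin 24 h array A). The higher gene was Notum, a secreted inhibitor of Wnt ligands, which read 9.07, 9.31 and 9.25 and then 7.27, 7.39 and 7.32 in control cells, and 9.68, 9.82 and 9.98 and then 9.18, 8.84 and 8.94 in β-catenin cells. Its levels with β-catenin were higher at both times (interaction 1.04 ± 0.16, adjusted p = 0.00248).

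Of 19 interferon-stimulated genes, 4 were lower and 0 higher (median -0.272, with 0 to 1 higher over other settings). Irf9, a transcription factor of the interferon response, started level at 9.05 and 9.03 and rose 2.41-fold and 1.37-fold. Usp18, which damps signalling by the interferon receptor, rose at least 4.23-fold and at least 1.64-fold, and Gbp2, a guanylate-binding protein gene, rose 3.7-fold in control cells and at least 1.87-fold with β-catenin. Of 9 MHC class II and costimulation genes, 2 were lower, Cd74 and the costimulatory ligand gene Cd80, which rose at least 4.51-fold and at least 2.21-fold. Of 22 cholesterol synthesis genes, 16 fell in control cells and 5 in β-catenin cells, beside 10.8% and 6.32% of all genes. In the interaction 3 were higher and 0 lower, and the others had no called difference between the responses (median 0.308, 0 to 5 higher over other settings). The count of higher genes was 0 without β-catenin 0 h array B or β-catenin 24 h array B. It was 1 without β-catenin 0 h array A or C, control 24 h array C or any 1 control array at 0 h. Of 27 DNA replication and mitosis genes, 2 were lower and 0 higher, where 7.17% of all genes were called, and 0 to 1 was lower without any 1 array other than control 24 h A or β-catenin 0 h A. Of 15 lymphoid genes, 9 of them below background throughout, 0 were called.

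**Figure D5:**
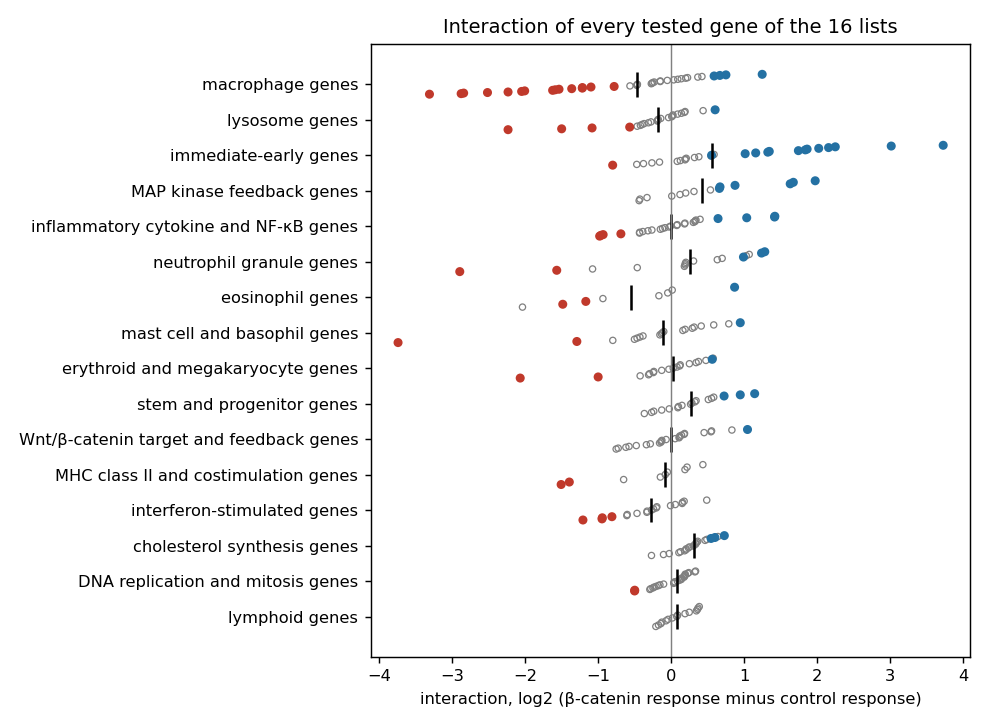
Each point is the interaction (β-catenin response minus control response, log2) of a tested gene of 16 lists, filled where called (red lower, blue higher), and black bars are list medians. Macrophage genes extend to the left (15 called lower) and immediate-early genes to the right (13 called higher).

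Markers of other cell types moved with the vector before 4-OHT was added. Of 8 eosinophil genes, 5 were higher with β-catenin at 0 h, beside 4.38% of all genes. Siglecf, Ccr3 and Alox15 were below background on all arrays. The summed signal of the list was 9.59 to 10.34 and then 10.45 to 11.80 (log2) in control cells, and 16.18 to 16.59 and then 16.17 to 16.52 in β-catenin cells. The sums include values below background and follow the highest members, and 7 of the 8 genes remained without genes at the scan ceiling. They do not give the size of a shift across the list. Ear1, an eosinophil ribonuclease gene, read 6.42, 6.33 and 6.49 and then 7.73, 7.64 and 6.96 in control cells, and 11.34, 11.04 and 11.17 and then 10.52, 10.96 and 10.69 in β-catenin cells. Ear1 is counted as a blocked rise, although control cells at 0 h were below background and β-catenin cells were higher at both times. Ear genes are close paralogs, and the probe may read more than 1 of them.

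With β-catenin at 0 h, 7 of 19 genes of mast cells and basophils were higher and 1 was lower, beside 4.38% and 6.62% of all genes. Mcpt1, Mcpt4, Tpsab1, Tpsb2, Fcer1a and Cd200r3 were below background throughout. The summed signal of the list overlapped between the vectors, at 16.07 to 16.59 and 16.12 to 16.58 at 0 h. Cpa3, the gene of mast cell carboxypeptidase, was below background in control cells and read 10.48, 10.73 and 10.69 and then 9.41, 9.13 and 9.31 with β-catenin (interaction -1.29 ± 0.23). Hdc, the gene of histidine decarboxylase, was 6.61-fold higher at 0 h and 8.77-fold higher at 24 h, and its fall was unaffected. Of 19 erythroid and megakaryocyte genes, 6 were higher and 2 lower at 0 h, beside 4.38% and 6.62% of all genes. Alas2, Car2 and Pf4 were among those below background throughout. The summed signal of this list was 16.08 to 16.29 and then 15.52 to 15.64 in control cells, and 16.28 to 16.44 and then 15.87 to 16.04 in β-catenin cells. Gata1, the erythroid transcription factor, read 8.85, 8.87 and 8.71 and then 7.67, 7.80 and 7.69 with β-catenin and was below background in control cells. Gfi1b, a transcriptional repressor gene on the same list, read 9.21, 9.13 and 9.15 and then 7.84, 7.61 and 7.48 with β-catenin (interaction -2.07 ± 0.17, adjusted p = 3.91e-05). It was also below background in control cells, so the size of its interaction rests in part on values below background. The part of these cell types in the classes above was not tested.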

How the data were processed

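Total RNA of 12 PUER samples was measured as Cy3-labelled cRNA on Agilent mouse whole genome arrays, 1 per sample. Scanned intensity values of 43379 spots (41174 probes), up to a ceiling of 65535, were deposited in a table that its file header calls non-normalized. The values analysed are the log2 values that the authors normalized, per the file headers, and deposited for 27676 gene names with 1 probe for each. Limma is named in the submitters' processing notes, while its version and role and the normalization method are not given in the sources used here. As deposited, the series matrix equals that table (largest difference 0). Per array, 1.42% to 2.30% of spots were at the ceiling, and correlations across genes were 0.994 to 0.996 within groups and 0.976 to 0.990 between groups.

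Genes at or above the 30th percentile on at least 3 arrays were kept (22461). A limma fit (version 3.58.1 in R 4.3.3) covered the 12 arrays, with 1 mean per group and no block (8 residual degrees of freedom, prior 3.685), with two-sided tests and Benjamini-Hochberg adjustment over all genes. The procedure was tested on simulated data. The background bound of an array lies 3 standard deviations above the mode of its values (6.41 to 6.49), with the deviation taken from values under the mode. Gene names were updated through RefSeq: 14728 matched directly, 4294 through a synonym, and 8654 were kept as listed.

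The members and lists were chosen with earlier results of these data known. Genes were named by class, by the largest interaction (blocked, reversed, dampened, enhanced, gained) or control response (unaffected), with clone names and genes at the ceiling left out. Some genes that this rule takes are not reported here. Further names are list members with the largest called interactions, unaffected list members, and Ctnnb1, Spi1, Axin2, Lef1, Adgre1, Itgam and Csf1r. Genes named by these class and list rules needed all arrays of the group with their highest mean above background. That such a group was above background is thus no result. Promoters cover 250 bases before to 50 after the first listed start of 13129 of the genes tested. Alternatives were other normalizations, filters, a replicate block, array weights, another prior, each array left out, and other limits of the classes. A filter on background, a brightness term and a block among the 24 h arrays were chosen after seeing the data. The letters were checked for pairing by correlating deviations from the group means. Arrays of both vectors at 24 h correlated at 0.149 to 0.189 with the same letter and at -0.197 to 0.00151 with different letters. Deviations cancel within a group, so these ranges depend on each other. Different-letter pairs of other groups reached 0.223, so whether the letters pair arrays at 24 h was not settled. No other pair of groups had all 3 same-letter correlations over 0.1, and the labels do not say what a letter stands for.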

Additional observations from a re-analysis of the deposited data

Results flagged for a closer look

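The difference between the 4-OHT responses of both vectors was itself called by limma for 1610 genes. Among genes with a control change of at least 2-fold, 8 had responses called in opposite directions. For Il1rl1, whose control arrays at 0 h were below background, the interaction was -3.74, and for Clec7a it was -2.05. Both genes rose in control cells and fell with β-catenin. The interaction was 2.25 for Maff, 2.15 for Fosl1, 2.0 for Elovl3, 1.97 for Dusp4, 1.92 for Isg20 and 1.41 for Ccl4. These genes fell in control cells and rose with β-catenin. Probes without a gene name were outside the comparisons. With normexp and quantile normalization of the scanned intensities, the interaction was called for 645 of 10566 such probes tested (6.1%), 298 higher and 347 lower.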

How the results depend on the processing

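Over 23 other settings, 0 of the 95 named genes turned the direction of a called interaction. Of the 73 with a called interaction, 10 lost it in at least 1 setting. Array weights gave 2810 interaction calls in place of 1610, 5060 in place of 3220 for the β-catenin response and 4350 in place of 2469 for the vector effect at 0 h, with 11 reversed falls and 4 enhanced rises. Normexp and quantile normalization gave 2148 interaction calls (1129 higher, 1019 lower) and scaling to the 75th percentile gave 1505 (889 higher, 616 lower). That scaling split the vector effect at 24 h into 2615 higher and 1753 lower, in place of 1950 and 2219. The reversed falls numbered 3 with no filter and 10 with genes above background on at least 3 arrays. The enhanced rises numbered 4 with the 50th percentile filter, with the trend and robust prior, with the background filter and with the brightness term, and 1 without genes at the ceiling.

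The classes follow their limits. With up to 50% remaining, 192 rises and 270 falls were blocked and 106 and 61 dampened. With any called control response, 315 rises and 432 falls were blocked, 41 and 58 reversed, 13 and 3 enhanced and 1832 and 1531 unaffected, and 107 and 116 responses were gained. With intervals within 0.5, 48 rises and 17 falls were unaffected.

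Leaving out 1 array at a time gave 1093 to 2143 interaction calls, 4264 to 5226 for the control response, 2191 to 3803 for the β-catenin response, 1547 to 2968 for the vector effect at 0 h and 2790 to 4859 at 24 h. It gave 53 to 102 blocked rises, 137 to 155 blocked falls, 1 to 10 reversed rises, 1 to 9 reversed falls and 1 to 4 enhanced rises. Most of the highest counts came without control 24 h array A. The cause of these changes was not tested.

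With the letters as a replicate block, 1441 interactions were called and 3 falls were reversed. With the letters as a replicate block among the 24 h arrays only, an alternative chosen after seeing the data, 2052 interactions and 5048 vector effects at 24 h were called, and 21 rises and 32 falls were gained in place of 12 and 19. The block on all arrays lost the calls of Gaa, Prg3, Lss and Dhcr7 among the named genes, and the block among the 24 h arrays lost none. Levels below the background bound and at the scan ceiling limit what could be measured.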
